A study of Mus musculus with 3 samples.

Results

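The cells described here are the 60 wells of replicate 2 that held at least 250000 unique molecular identifiers (UMIs), out of 768 wells in that replicate and 1536 in the series. A UMI is a random tag that reverse transcription adds to an mRNA copy, so that the UMI total of a well stands for how much cellular RNA was recovered from it. The wells were chosen by this total alone, summed over the annotated mouse genes and without the spike-in and transgene sequences, and the total is therefore described and not tested. They were set beside the 324 wells of replicate 2 that held 100000 to 200000 UMIs, within the same plate for every test and within the same condition or over both where stated, and are called high-UMI and comparison wells. Auxin wells made up 54 of the 60 and 102 of the 324, so values over both conditions mix the class with the treatment.

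The study sorted single JM8.N4 mouse embryonic stem (ES) cells, a C57BL/6N line, into 96-well plates for Smart-SCRB, a plate-based single-cell RNA sequencing method that counts the 3′ ends of transcripts. In all cells, controls included, the cohesin subunit RAD21 had been fused by CRISPR/Cas9 to an auxin-induced degron, a tag that sends the protein to degradation once auxin is present. Cells were grown on gelatin without feeders in serum medium with leukemia inhibitory factor and the 2i inhibitors PD0325901 and CHIR99021, and were either left untreated (control) or kept in 500 µM auxin for 6 h. Replicate 2 comprised 4 control plates and 4 auxin plates, numbered 1, 2, 4 and 5 in the annotation of wells. Nothing in the labels separates cultures within a condition, so p-values over plates measure the spread between libraries, and in replicate 2 the culture and the condition cannot be told apart.

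The amount of mRNA in a cell grows with its volume, and a cycling cell is largest as it passes through S and G2 phase toward division. Cyclin A2 (Ccna2) and cyclin B1 (Ccnb1) accumulate in this period and activate the kinase Cdk1, which drives entry into mitosis, so these 3 transcripts serve as markers of late cycle stages. Mouse ES cells are known for a short G1 phase and for expressing cyclins through most of the cycle.

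Plates of replicate 2 were alike in depth, with 51548020 to 63465035 reads and 12125701 to 13664163 UMIs each, and carried the same 96 well barcodes by design. They differed in how the UMIs were spread over wells. Wells with at most 2000 UMIs numbered 0, 5, 2 and 1 on control plates 1 to 4 and 13, 16, 17 and 18 on auxin plates 1, 2, 4 and 5. All 96 wells of plate row D were low, with a median of 23829 UMIs and 620 ERCC counts, and none of them was a high-UMI or a comparison well. One well of auxin plate 1 carried the name of auxin plate 2 in the annotation and was kept with its plate.

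ES cell markers were uneven in replicate 2. Sox2, a core pluripotency factor, had 0 UMIs in all 768 wells, against 4699 UMIs in replicate 1 and 0 in replicate 3. Pou5f1, which encodes OCT4, was found in 31.5% of high-UMI and 30.4% of comparison wells of the auxin plates, at pooled levels of 3.68 and 11.1 counts per 1000000 UMIs (CPM), against 249 CPM over the wells of replicate 1 and 10 CPM over those of replicate 3. Whether Sox2 and Pou5f1 were counted in the same way in all replicates was not tested, and their levels in replicates 2 and 3 are not read as expression. By contrast, Dppa5a was detected in 60 of 60 high-UMI and 323 of 324 comparison wells, and Sall4 in 55 and 303. Nanog was detected in 59.3% of high-UMI and 47.1% of comparison wells of the auxin plates, and in 5 of 6 and 76.6% on control plates. Detection here is on deposited counts of unequal depth. Pooled levels of Nanog were 32.6 and 29 CPM on auxin plates and 33.4 and 59 CPM on control plates. Levels differed from those of the other replicates in both directions. Over the high-UMI wells Nanog stood at 32.7 CPM, against 531 and 485 CPM over the wells of replicates 1 and 3, and Zfp42 at 57 CPM against 290 and 217 CPM. Dppa5a stood at 2065 CPM against 7690 and 6668 CPM, while Sall4 stood at 127 CPM against 99.3 and 147 CPM. Tdgf1, a Nodal co-receptor found in 60 of 60 high-UMI wells, stood at 587 CPM against 572 and 553 CPM, and Dnmt3b, which is listed with the formative and primed genes below, at 598 CPM against 25.1 and 40.4 CPM. Esrrb stood at 3.11 CPM against 64 and 95.9 CPM. The listed ES cell markers were Pou5f1, Sox2, Nanog, Esrrb, Zfp42 and Sall4, and of these only Sall4 stood near both other replicates. Tdgf1 also did, but Tdgf1 and Dppa5a were not on that list. The ES cell label therefore comes from the study's cell line more than from these levels.

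High-UMI wells were mostly auxin wells. Control plates 1 to 4 held 0, 2, 3 and 1 of them, and auxin plates 1, 2, 4 and 5 held 9, 15, 7 and 23. This made 6 of 384 control wells, or 1.56% (95% exact binomial interval 0.576 to 3.37%), and 54 of 384 auxin wells, or 14.1% (10.7 to 17.9%). The intervals cover counting error only. Among wells past the study's filter of more than 2600 detected genes, which all 60 passed, the shares were 1.62% of 371 and 18.6% of 290. On auxin plate 5 the 23 wells supplied 50.5% of the UMIs of the plate.

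**Figure D1:**
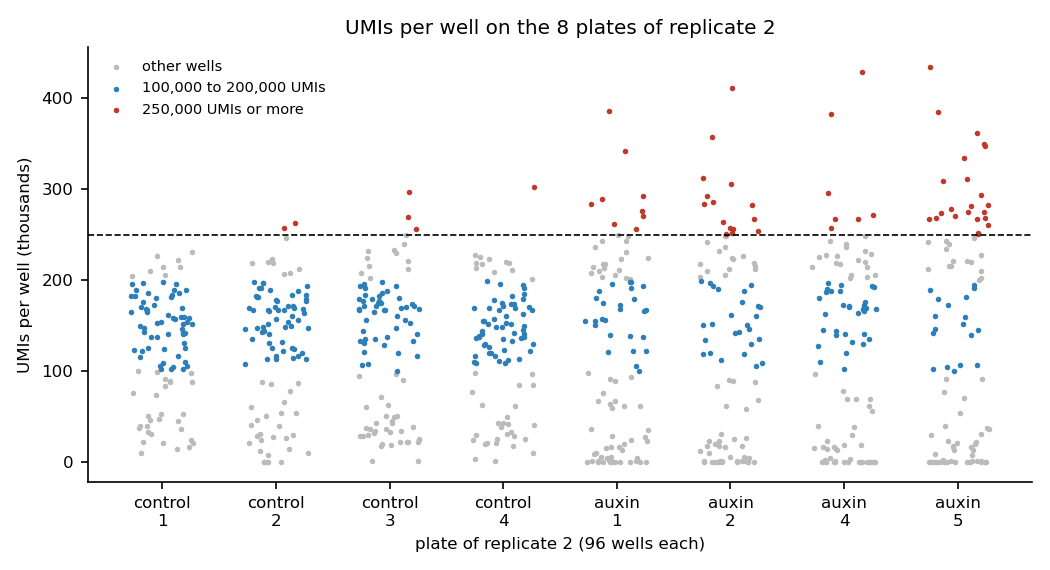
UMIs per well (vertical axis, in kilo-UMIs) for the 96 wells of each control and auxin plate of replicate 2, 1 point a well. Red points at or above the dashed line at 250000 UMIs are the 60 wells described here, 54 of them on auxin plates, and blue points are the 324 comparison wells.

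The 60 totals ran from 250821 to 434421 UMIs with a median of 276977.5, against a median of 156678.5 in comparison wells. The highest totals, 434421, 428994 and 411311 UMIs, came from 3 different auxin plates. There was no gap at the threshold. The lowest members held 250821, 250946 and 251315 UMIs, the wells just outside held 249668, 249492 and 248694, and 107 wells lay between 200000 and 250000. The 60 wells occupied 44 plate positions, of which 30 were used on 1 plate, 12 on 2 plates and 2 on 3 plates, so that no position recurred on most plates.

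The ERCC spike-ins gave a reference outside the cell for these totals. ERCC transcripts are synthetic RNAs added in equal amount to the lysis mix of each well, and they are not part of the UMI total used to choose the wells. The median ERCC count of high-UMI and comparison wells was 5604 and 5516.5 on auxin plate 1. On auxin plates 2, 4 and 5 it was 5707 and 6116.5, 4491 and 5050, and 6220 and 6405.5. For control plates 2, 3 and 4 the medians were 5354.5 and 4769.5, 4216 and 4657.5, and 3888 and 4253. The count was thus lower in high-UMI wells on 5 of 7 plates and higher on 2, and their ranges overlapped on each plate. The mean log2 ratio was −0.06 ± 0.12 (SD, n = 7 plates), which did not differ from 0 beyond the spread between plates (exact permutation test by flipping the signs of plates, two-sided, p = 0.266, with 0.0156 as the lowest p 7 plates can give).

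UMIs per ERCC count followed the UMI total, which is its numerator. High-UMI wells had medians of 48.1, 45.7, 65.8 and 47.5 UMIs per ERCC count on auxin plates 1, 2, 4 and 5, and comparison wells had 28, 25.7, 31.6 and 23.1. On control plates 2, 3 and 4 the medians were 48.6, 70.4 and 77.6 against 33.8, 35.9 and 34.4. The ratio of the medians lay between 1.44 and 2.26 on the 7 plates, close to the ratio of the UMI totals themselves, 1.6 to 2.03.

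Wells were also counted on the spike-in scale, leaving out row D, whose low ERCC counts raise the quotient. Outside that row, wells past the gene filter had a median of 5697 ERCC counts on auxin plates and 4705 on control plates. At or above 49.2 UMIs per ERCC count, the median of the 60 wells, there were 36 of 261 auxin wells (13.8%) and 16 of 326 control wells (4.91%). Of these, 26 auxin and 4 control wells were high-UMI wells. With row D the counts were 50 of 290 (17.2%) and 33 of 371 (8.89%), since 14 auxin and 17 control wells of that row reached the value. The part of the different numbers of nearly empty wells in these shares was not tested.

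**Figure D2:**
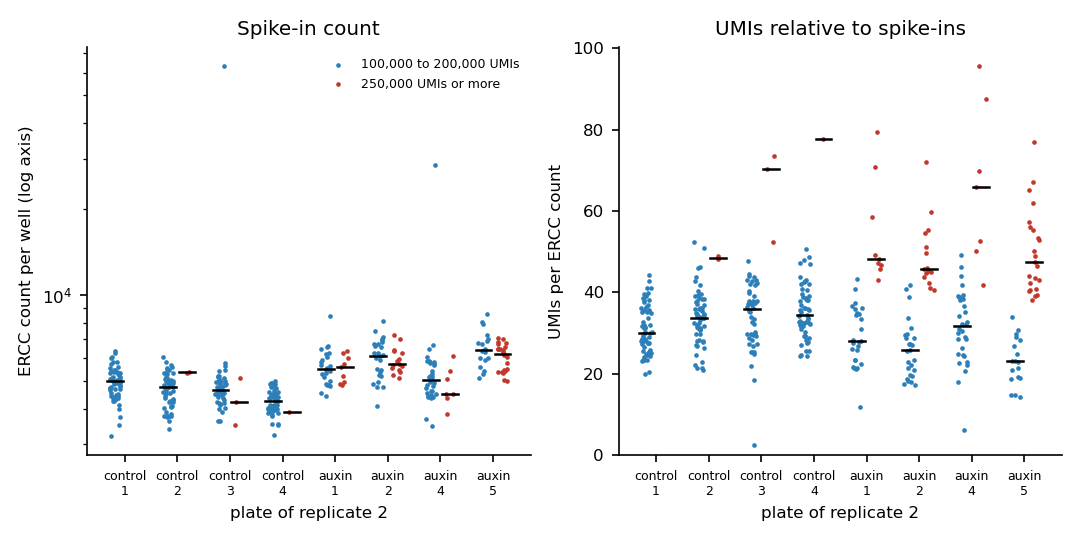
ERCC count per well (left, log axis) and UMIs per ERCC count (right) on the 8 plates of replicate 2. Each point is a well, black bars are medians, blue marks comparison wells and red marks wells of 250000 UMIs or more. ERCC medians differ little between the 2 kinds of well on a plate, whereas UMIs per ERCC count are higher in red wells. Comparison wells with 63489 and 28441 ERCC counts stand far from the others.

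Rare spike-ins gave a measure of how many UMIs 1 detection yields. Over 35 ERCC species found in between 1 and 20% of replicate 2 wells, a detection carried on average 10.4 UMIs in high-UMI and 10.9 UMIs in comparison wells of the auxin plates (146 and 201 detections), and 6.86 and 8.23 UMIs on control plates (14 and 598 detections). Most detections thus came as several UMIs, and a UMI in these tables cannot be read as 1 captured molecule. The yield per detection was not higher in high-UMI wells under either condition.

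The number of genes with at least 1 UMI was then counted after thinning each well to 100000 UMIs. Since a detection yields several UMIs, equal UMIs are not equal molecules, and this number cannot be told apart from the UMI total that chose the wells. It is given as a description. Permutation tests of this number were run and belong to the 10 plate tests and the 10 difference tests adjusted together below. Their outcome follows the choice of wells and is not read. The median was 7481 genes in high-UMI and 6937 in comparison wells of auxin plate 1, 7587 and 6786.5 on auxin plate 2, 8189 and 6919 on auxin plate 4, and 7590 and 6377.5 on auxin plate 5. The medians of control plates 2, 3 and 4 were 7717 and 7201, 8135 and 7242, and 8816 and 7320. High-UMI wells were higher on 7 of 7 plates, by 962 ± 376 genes on average (SD, n = 7 plates), and by 957 genes on the 4 auxin plates.

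In replicates 1 and 3, whose wells the rule did not use, classes were set at the same ratios to the replicate's median UMI count. This gave 18 high-UMI and 213 comparison wells in replicate 1 and 28 and 210 in replicate 3, and the condition of their plates was not used because sources disagree on it for replicate 3. Only 1 of these wells reached 250000 UMIs. At equal UMIs within a replicate (69631 and 47982), the high-UMI class had more detected genes on 8 of 8 plates, by 871 ± 109 genes (SD, n = 8 plates). These classes were again set by the UMI total, so the number is a description here too.

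**Figure D3:**
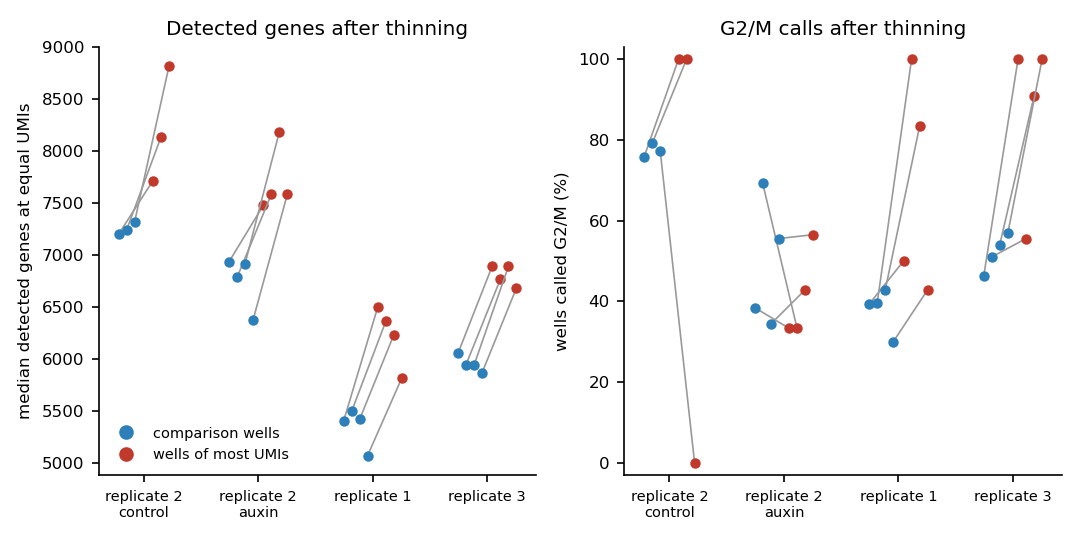
Median number of detected genes at equal UMIs within a replicate (left) and percentage of wells that cyclone called G2/M (right) on each plate of replicates 2, 1 and 3. Blue marks comparison wells, red marks wells of most UMIs, and a line joins the wells of a plate. Red points lie above blue points on all 15 plates at left, while at right they do so on all 8 plates of replicates 1 and 3 and on 4 of 7 plates of replicate 2. The red point at 0 is a single well.

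The spread between wells was described in the same way. For each gene with a mean of at least 2 UMIs in both kinds of well after thinning, the variance between wells was divided by the mean. Averaged over 5754 genes this ratio was 4.99 in high-UMI and 9.17 in comparison wells of auxin plate 1. On auxin plates 2, 4 and 5 it was 5.71 and 11.3, 4.72 and 8.31, and 5.73 and 11.5, over 5850 to 5916 genes. The ratio was lower in high-UMI wells for 83.7 to 89.2% of genes on these 4 plates. In replicates 1 and 3, the 5 plates with at least 5 high-UMI wells gave 80.5 to 86.7%. On the auxin plates the ratio in high-UMI wells was 0.498 to 0.568 of that in comparison wells, while their median UMI total was 1.62 to 1.88 times as high. Thinning a larger total splits the several UMIs of a detection further, so this spread cannot be told apart from the UMI total, and no likeness between cells is read from it.

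The variance-to-mean ratio was lower in each successive bin of UMI total, the variable that also sets how far a well is thinned. On auxin plates the mean variance-to-mean ratio was 13.5 in the 19 wells of the lowest bin, which began at 100000 UMIs, 7.99 in the 31 wells of the bin that ended at 200000, 5.79 in the 38 wells of 250000 to 300000 and 4.88 in the 16 wells above. On control plates it was 8.42 in the 42 wells of the lowest bin and 4.49 in the 5 wells of 250000 to 300000. The median of detected genes at equal UMIs was 6564 in the lowest and 7564 in the 250000 to 300000 bin on auxin plates, and 6888.5 and 8110 in the same bins on control plates. Both measures follow the binning variable and are given without a test.

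**Figure D4:**
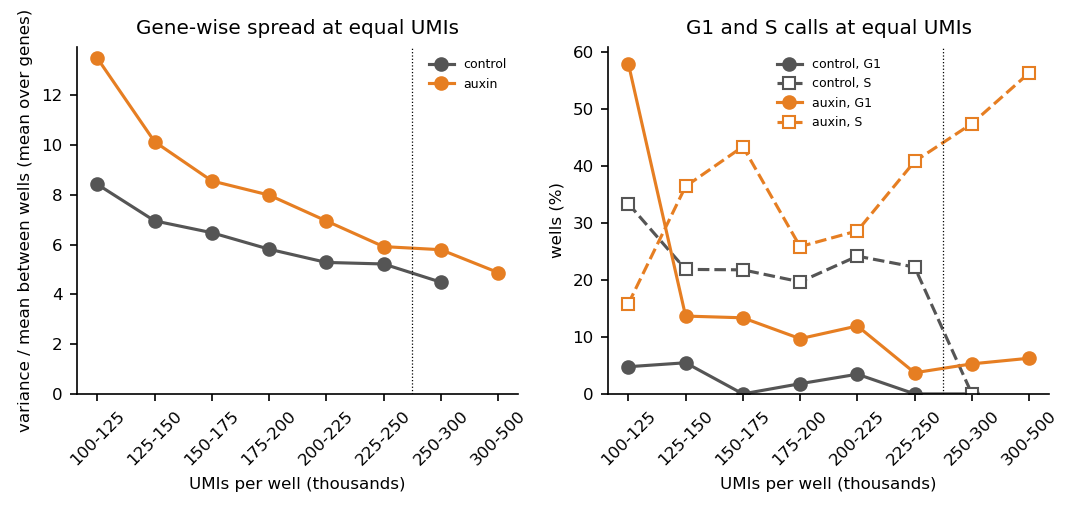
Gene-wise variance divided by mean between wells, averaged over genes (left), and percentage of wells called G1 or S (right), by UMI bin (horizontal axis, in kilo-UMIs) for control (gray) and auxin (orange) wells of replicate 2 thinned to 100000 UMIs. The dotted line marks 250000 UMIs. The spread is lower in each successive bin, as the share of UMIs removed by thinning grows, and G1 calls are most frequent in the lowest auxin bin (57.9%), and S calls are most frequent in the highest (56.2%).

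Cell cycle phases were then assigned with cyclone, a classifier that compares the order of expression within pairs of marker genes, on thinned wells. Of the 54 auxin high-UMI wells, 24 were called G2/M, 27 S and 3 G1, whereas the 102 auxin comparison wells had 49, 32 and 21. Of the 6 control high-UMI wells, 5 were called G2/M and 1 S, and the 222 control comparison wells had 164 G2/M, 52 S and 6 G1. The most common phase call of the auxin high-UMI wells was hence S. Calls were the same on the deposited counts in 55 of 60 wells. The part that the number of molecules behind a thinned well has in these calls was not tested.

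By plate, G2/M made up 33.3, 33.3, 42.9 and 56.5% of high-UMI wells on auxin plates 1, 2, 4 and 5, against 38.5, 69.2, 34.4 and 55.6% of comparison wells. The difference over 7 plates was −9.11 ± 36 percentage points (SD, n = 7 plates), in a direction that varied between plates (higher on 4, lower on 3; exact permutation test, p = 0.594). It rested partly on the lone well of control plate 4, without which it was 2.23 points. G1 calls were fewer in high-UMI wells on 6 plates and equal on 1, by 9.68 ± 8.07 points. The exact permutation test gave p = 0.0312, and 0.0625 after Benjamini-Hochberg adjustment over 10 plate tests, which does not pass the correction. These 10 tests include those of detected genes, so the adjusted values here and for replicates 1 and 3 depend on tests whose outcome follows the UMI total. S calls were more frequent on 5 plates and less frequent on 2 (mean difference 18.8 ± 34.7 points; exact permutation p = 0.188), and the mean was 9.06 points without control plate 4.

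The same shares were taken in replicates 1 and 3. G2/M calls made up 66.7% of 18 high-UMI and 38% of 213 comparison wells in replicate 1 and 82.1% of 28 and 51.4% of 210 in replicate 3, and were more frequent on 8 of 8 plates, by 32.8 ± 20.9 points (SD, n = 8 plates; exact permutation test, p = 0.00781; adjusted 0.026). The difference from replicate 2 was −42 points (exact permutation test over 7 and 8 plates, p = 0.00855; 0.0855 after adjustment over 10 such tests), and it did not pass the correction. Without the lone well of control plate 4 it was −30.6 points. G1 calls were fewer on 8 of 8 plates of replicates 1 and 3, by 16 ± 10.5 points (exact permutation test, p = 0.00781; adjusted 0.026), the direction seen in replicate 2, and the gap between the replicates was 6.36 points (exact permutation test, p = 0.216). Replicates 1 and 3 were sequenced with fewer UMIs a well, and their phases were called at 69631 and 47982 UMIs against 100000 in replicate 2. Replicate 2 also had 54 auxin wells among its 60. Replicate, depth of the phase calls and treatment therefore cannot be told apart in this contrast.

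The 3 marker transcripts were not specific to high-UMI wells. In the sums of each plate, Ccnb1 (ENSMUSG00000041431, mm10 chromosome 13, 100778650 to 100786570) stood at 718, 641, 761 and 797 CPM in high-UMI wells of auxin plates 1, 2, 4 and 5, and at 581, 700, 683 and 661 CPM in comparison wells. On control plates 2 and 3 it stood at 702 and 886 CPM against 769 and 756 CPM. High-UMI wells were above their comparison on 4 of 6 plates, and the values of both kinds overlapped. The log2 difference was 0.15 ± 0.09 (SE; edgeR quasi-likelihood test over 6 plates, adjusted p = 0.935).

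Cdk1 (ENSMUSG00000019942, chromosome 10, 69335146 to 69352938) ranged from 206 to 456 CPM in high-UMI and from 225 to 435 CPM in comparison wells, higher on 3 of 6 plates. Its log2 difference was 0.10 ± 0.14 (SE; edgeR, adjusted p = 0.956). Ccna2 (ENSMUSG00000027715, chromosome 3, 36564865 to 36572150) ranged from 183 to 341 CPM and from 231 to 318 CPM, with a log2 difference of 0.08 ± 0.14 (SE; edgeR, adjusted p = 0.969). The high-UMI wells of auxin plate 5, the plate with most such wells, had the highest Ccna2 level.

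In single wells, at 100000 UMIs each, the values of the classes overlapped within each condition. On auxin plates Ccnb1 had a median of 820 CPM in 54 high-UMI wells (170 to 1380) and of 520 CPM in 102 comparison wells (0 to 1840). On control plates the medians were 630 CPM in 6 wells (280 to 1200) and 765 CPM in 222 wells (0 to 2100), the opposite order. On the deposited counts, whose depth is unequal between the classes, Cdk1 had no UMI in 3 of 54 high-UMI and 19 of 102 comparison wells of the auxin plates. On control plates it had none in 0 of 6 and 2 of 222 wells. Thinned wells of the classes differ in how far they were thinned, and no test was made on single wells. The wells are therefore called by their UMI total here and not by a cycle stage. In replicate 1 the log2 differences of Ccnb1, Cdk1 and Ccna2 were 0.44 ± 0.19, 0.51 ± 0.14 and 0.13 ± 0.20, and in replicate 3 they were 0.41 ± 0.10, 0.50 ± 0.11 and 0.32 ± 0.16 (SE, 4 plates each), none of which passed the adjustment of the edgeR test over all genes.

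Across the transcriptome, few genes separated the classes. Of 12252 genes tested over the 6 plates with at least 2 wells of both kinds, 0 passed an adjusted p of 0.05 with edgeR (0% called, lowest adjusted p = 0.27). At an unadjusted p under 0.05 there were 655 genes (5.35%), 261 higher (2.13%) and 394 lower (3.22%) in high-UMI wells. DESeq2 on the same sums called 13 genes (0.106%). Among these, Gfod2, Isyna1, Psma7, Fgf5 and Spc24 were higher and Arid5b, Fbxw7, Cth, Mfge8, F2r, Gtsf1l and Gm34623 were lower in high-UMI wells, names given after their values were seen. The median log2 difference of all genes was −0.07, and values of gene groups below are read against it.

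Genes of mitosis, grouped by role, had the following values. Of 11 mitotic cyclins and Cdk1 regulators, 8 were higher and 3 lower, with a median log2 difference of 0.10. Against wells of 150000 to 250000 UMIs 4 of 11 were higher with a median of −0.01, and without control plate 3 it was 6 of 11 with 0.02. Cks1b, a small subunit of cyclin-dependent kinases, had 0.19 ± 0.09 (SE). The 10 mitotic kinases had a median of 0.01 (5 higher) and the 8 cofactors and targets of the anaphase-promoting complex, which ends mitosis by protein destruction, had 0.02 (5 higher). The 16 kinetochore and centromere genes had −0.07 (5 higher), the 22 spindle and cytokinesis genes 0.02 (12 higher) and the 12 genes of mitotic chromosome structure −0.02 (5 higher). The spindle list had −0.12 (7 higher) on auxin and 0.06 (13 higher) on control plates alone. The chromosome structure list had 0.07 (8 higher) and −0.19 (4 higher), where all genes had −0.0041 and −0.18. No member of any of these lists passed the edgeR test.

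Spc24, a subunit of the NDC80 complex that links kinetochores to microtubules, had plate values that did not overlap between the classes. It stood at 335 and 365 CPM in high-UMI wells of control plates 2 and 3 and at 290, 270, 300.2 and 286 CPM on auxin plates 1, 2, 4 and 5, against 256, 264, 269, 176, 243 and 205 CPM in comparison wells of these plates. High-UMI values lay above all comparison values. Values without overlap, in either direction, were found for 50 of 12252 genes (0.408%). Its log2 difference was 0.43 ± 0.10 (SE; edgeR adjusted p = 0.922, DESeq2 adjusted p = 0.045). In replicates 1 and 3 the value was 0.14 ± 0.19 and −0.02 ± 0.13.

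The broader G2/M list of 57 genes gave a median log2 difference of 0.01 with 30 genes higher, against 41.9% higher among all genes of replicate 2. In replicate 1 the same 57 genes had a median of 0.33 with 50 higher, and in replicate 3 they had 0.25 with 48 higher, where 37.3 and 43.4% of all these genes were higher. In replicate 2 the sign of this median depended on the settings. It was −0.06 with 17 of 57 higher against wells of 150000 to 250000 UMIs, and −0.04 with 23 of 57 higher without control plate 3. It was −0.04 with 24 of 57 higher at a threshold of 300000 UMIs, and the same on auxin plates alone. The medians of all genes were −0.06, −0.05, −0.09 and −0.0041 in this order, and the list lay above all genes in 14 of 17 settings. At an unadjusted p under 0.05, 2 members were higher and 1 lower in replicate 2, 13 higher and 0 lower in replicate 1, and 13 higher and 0 lower in replicate 3 (edgeR). Of all genes tested in these replicates, 1.75 and 1.54% were higher and 4.21 and 2.25% lower at that level. None passed the adjustment over all genes.

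**Figure D5:**
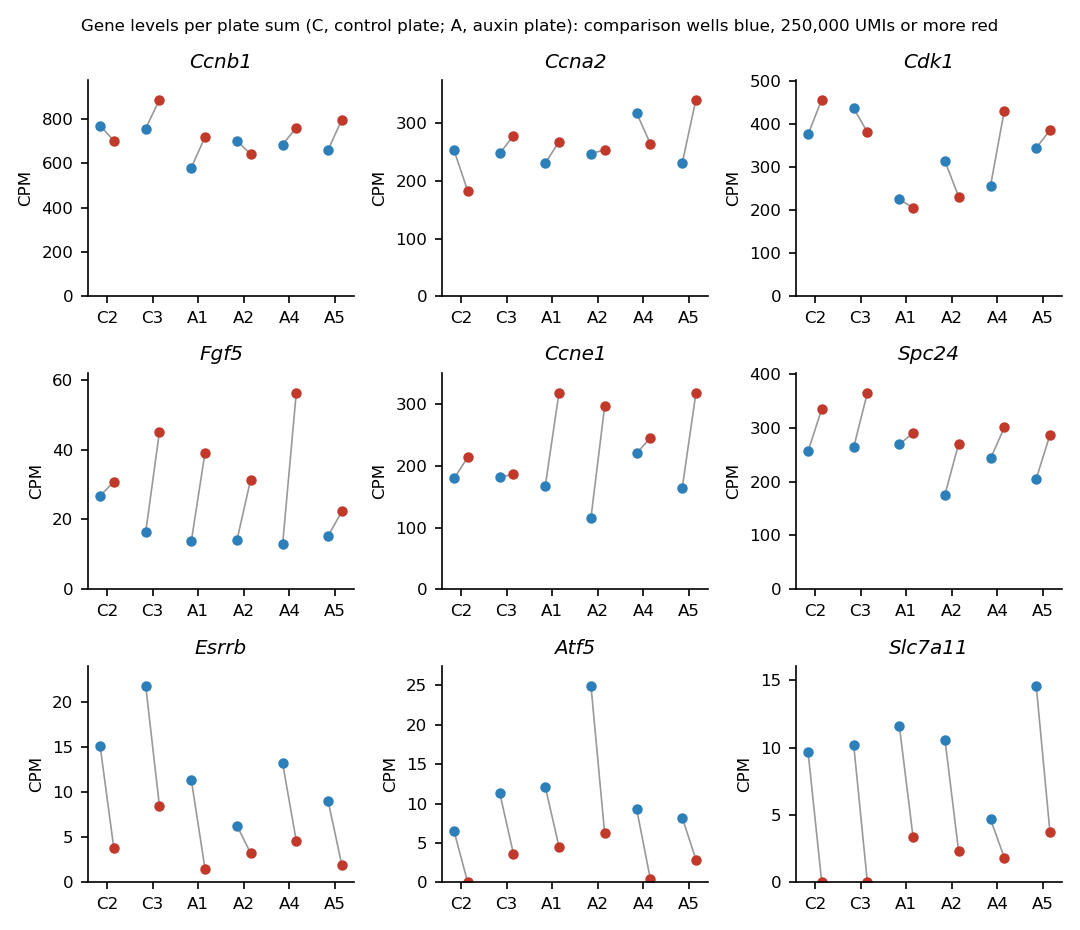
Levels in CPM (vertical axes, each from 0) of 9 genes in the summed wells of control plates 2 and 3 (C2, C3) and auxin plates 1, 2, 4 and 5 (A1, A2, A4, A5). Blue points are comparison wells, red points are wells of 250000 UMIs or more, and lines join the wells of a plate. The 3 markers cross between plates, and Fgf5, Ccne1 and Spc24 are higher in red wells on 6 of 6 plates. Esrrb, Atf5 and Slc7a11 are lower on 6 of 6, at levels that rest on few UMIs in red wells.

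Among G1/S genes, 28 of 43 were higher with a median of 0.08, and 0 passed the test. The sign of this median turned on 1 library and on condition. It was −0.0038 with 20 of 43 higher without auxin plate 1, and −0.10 with 19 of 43 higher on control plates alone. The medians of all genes in these settings were −0.07 and −0.18, and the list lay above all genes in 17 of 17 settings. Cyclin E1 (Ccne1), which partners with Cdk2 at the start of S phase, was at 318, 296, 244 and 317 CPM in high-UMI wells of auxin plates 1, 2, 4 and 5 and at 168, 116, 220 and 164 CPM in comparison wells. In control plates 2 and 3 it was at 213 and 186 CPM against 180 and 181 CPM. The log2 difference was 0.65 ± 0.19 over 6 plates (SE; edgeR adjusted p = 0.922), 0.90 on auxin plates alone and 0.14 on control plates alone. In replicates 1 and 3 it was −0.12 ± 0.24 and −0.03 ± 0.30.

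All 12 tested genes of naive pluripotency, the ground state that 2i medium favors, had lower values in high-UMI wells (0 higher, median −0.79), and 2 of them had an unadjusted p under 0.05, as had 3.22% of all genes in this direction. Esrrb, an orphan nuclear receptor of the naive network, was at 1.51, 3.23, 4.61 and 1.89 CPM in high-UMI wells of auxin plates 1, 2, 4 and 5 and at 3.85 and 8.51 CPM on control plates 2 and 3, against 11.4, 6.3, 13.2, 8.98, 15.2 and 21.8 CPM in comparison wells. It was lower on 6 of 6 plates, although the ranges of the classes overlapped (log2 difference −1.76 ± 0.46, SE; edgeR adjusted p = 0.922). Nr5a2, another nuclear receptor, had −1.80 ± 0.66. Both lay at low levels, and 3 UMIs correspond to 5.77 CPM in the high-UMI sum of control plate 2.

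The naive list was lower on either set of plates, with medians of −1.18 on control and −0.47 on auxin plates. In replicates 1 and 3 the medians were −0.31 and −0.12, with 4 of 12 genes higher in each. Pou5f1, with the limit given above, had 1.51 to 8.51 CPM in high-UMI and 7.59 to 18.3 CPM in comparison wells, a log2 difference of −1.60 ± 0.53 (SE; edgeR adjusted p = 0.922). The general pluripotency genes as a group did not lean either way, with 5 of 11 higher and a median of −0.01.

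Genes of the formative and primed states, through which ES cells leave naive pluripotency, had the opposite sign. Of 10 tested, 9 were higher, the median was 0.35, and 5 were higher at an unadjusted p under 0.05, as were 2.13% of all genes. The lean was absent at other limits. With a threshold of 300000 UMIs the median was −0.09 and 4 of 10 were higher, and against wells of 150000 to 250000 UMIs it was 0.02 with 6 of 11 higher. Fgf5, a growth factor of the early epiblast, was at 39.1, 31.4, 56.3 and 22.3 CPM in high-UMI wells of auxin plates 1, 2, 4 and 5 and at 30.8 and 45 CPM on control plates 2 and 3. Comparison wells of these plates had 13.8, 14.1, 12.8, 15.3, 26.7 and 16.3 CPM, lower on each plate. The log2 difference of 1.21 ± 0.31 (SE) passed DESeq2 (adjusted p = 0.0444) and not edgeR (adjusted p = 0.922). Dnmt3b, a de novo DNA methyltransferase, had 0.38 ± 0.12, Pou3f1, a POU-domain factor of the epiblast, had 0.61 ± 0.21, and Lef1, a Wnt effector, had 0.33 ± 0.11. Otx2 of the same list had −0.29 ± 0.19. Replicates 1 and 3 tested only 5 and 6 of these genes, with medians of 0.46 and 0.12.

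All 12 genes of the integrated stress response, the ATF4 program switched on by amino acid shortage and unfolded proteins, were lower in high-UMI wells, with a median of −0.69 and 7 at an unadjusted p under 0.05, a level at which 3.22% of all genes were lower. Against wells of 150000 to 250000 UMIs the median was −0.29, with 0 of 12 higher. Atf5, a transcription factor of this program, was at 4.52, 6.23, 0.461 and 2.9 CPM in high-UMI wells of auxin plates 1, 2, 4 and 5, against 12.1, 25, 9.34 and 8.23 CPM. Slc7a11, the cystine transporter, was at 3.39, 2.31, 1.84 and 3.77 CPM against 11.6, 10.6, 4.67 and 14.6 CPM. On control plates 2 and 3 Slc7a11 had no UMI in the 5 high-UMI wells and 9.68 and 10.2 CPM in comparison wells. Atf5 and Slc7a11 lay at low levels in high-UMI wells. In the high-UMI sum of auxin plate 4, 3 UMIs correspond to 1.38 CPM, so these values rest on few detections. Asns, which makes asparagine, had a log2 difference of −0.32 ± 0.11, and Ddit3, which encodes CHOP, had −1.08 ± 0.42 (SE; edgeR adjusted p = 0.922 for each of these genes).

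This leaning was not shared by all plates. The stress list had a median of −1.03 with 0 of 12 genes higher on auxin plates, and of 0.11 with 6 of 12 higher on control plates. Ddit3 was at 13.2, 33, 19.4 and 17 CPM in auxin high-UMI wells against 49.4, 102, 32.9 and 143 CPM, and at 75 and 72.9 CPM in control high-UMI wells against 62.2 and 50.6 CPM. In replicate 3 the list's median was 0.21, and in replicate 1 it was −0.29 over 8 genes. Among heat shock chaperones, 8 of 10 were higher with a median of 0.12. Hspa5, the main chaperone of the endoplasmic reticulum, had 0.52 ± 0.16 and Hspd1, a mitochondrial chaperone, 0.24 ± 0.09 (SE). No gene of either list passed the edgeR test.

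Immediate early genes were lower in 7 of 11 cases (median −0.42), with Junb at −1.43 ± 0.46 and Atf3 at −1.91 ± 0.70, whereas Myc, a growth regulator, was higher (1.17 ± 0.43, SE). On the control plates alone 6 of 11 were higher with a median of 0.05, and the median over both conditions was −0.12 at a threshold of 300000 UMIs and −0.17 without control plate 3. Targets of p53 had a median of −0.12 with 3 of 12 higher, which turned to 0.05 with 8 of 12 higher against wells of 150000 to 250000 UMIs. Lists of protein synthesis and energy metabolism had medians 0.05 to 0.14 above that of all genes, and each lay above it in 17 of 17 settings. These offsets were not tested. The 82 cytoplasmic ribosomal protein genes had a median of −0.02, translation factors 0.02, glycolytic enzymes 0.03, nuclear-encoded respiratory chain genes 0.05 (49 of 79 higher, but 37 of 80 with a median of −0.01 against wells of 150000 to 250000 UMIs) and mitochondrially encoded genes 0.07. The mitochondrial share of UMIs had a median of 2.04% in high-UMI and 1.90% in comparison wells of the auxin plates and of 2.31 and 2.20% on control plates, and it was not tested.

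Of RNAs retained in the nucleus, 2 of 7 were higher, with a median of −0.11, which was 0.01 with 4 of 7 higher without auxin plate 2. Malat1, a long noncoding RNA of nuclear speckles, was at 7948.5, 8941, 9371 and 7869.7 CPM in high-UMI wells of auxin plates 1, 2, 4 and 5, against 12052, 15776, 10053 and 10786 CPM. The control plates 2 and 3 had 9421 and 10860 CPM against 9134 and 10578 CPM. The direction was thus opposite between the sets of plates, with a log2 difference of −0.29 ± 0.10 over all 6 (SE; edgeR adjusted p = 0.922). Cohesin subunits and partners had a median of −0.13 with 6 of 14 higher. It was −0.28 with 4 of 14 higher on auxin plates alone and −0.02 with 6 of 14 higher on control plates alone. Over 17 settings the median ran from −0.32 to −0.02, and it lay above that of all genes in 5. Rad21, the gene of the degron-tagged protein, was at 9.62 to 33.1 CPM in high-UMI and 25.7 to 47.7 CPM in comparison wells (log2 difference −0.56 ± 0.27, SE; edgeR adjusted p = 0.922).

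Markers of other cell types were present to a varying degree in both classes. Of 8 fibroblast or feeder markers, only decorin (Dcn) passed the filter on low counts, and the summed level of the list was 6.63 to 38.7 CPM in high-UMI and 9.33 to 30.2 CPM in comparison wells over the plates. On the auxin plates Col1a1 was detected in 3 of 54 high-UMI and 2 of 102 comparison wells, and Dcn in 51.9 and 35.3%, on deposited counts of unequal depth. The 13 endoderm and mesendoderm markers summed to 65.6 to 318 and 114 to 181 CPM, of which 3 passed the filter, 0 of them higher. The matrix gene Sparc was detected in 81.5% of high-UMI and 71.6% of comparison wells of the auxin plates and the laminin gene Lamb1 in 64.8 and 45.1%, whereas the endoderm factor Gata6 was detected in 7 of 54 and 10 of 102 wells. None of the 4 markers tested passed edgeR, and the part of these cell types in the gene differences was not tested. Of 11 markers of the 2-cell-like state, a rare ES cell state, 9 had 0 UMIs in the 60 wells together.

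A last comparison asked whether the gene differences themselves depended on auxin. The interaction of class and condition passed the edgeR threshold for 0 of 12252 genes (0% called), with 1038 at an unadjusted p under 0.05 (8.47%), of which 804 (6.56%) had a higher difference on auxin than on control plates. This direction follows the shift of all genes, whose median interaction was 0.20 on the log2 scale, and the control side rested on 5 wells. Without control plate 3, 1798 of 12350 genes (14.6%) had an unadjusted p under 0.05 and the median was 0.33. On the auxin plates alone, 0 of 12664 genes passed (0% called, 787 at an unadjusted p under 0.05, 6.21%). On the control plates alone, 2 of 12526 genes passed edgeR (0.016%), Rhox5 (log2 difference 3.25 ± 0.31) and Lefty1 (−2.62 ± 0.39), named after their values were seen and resting on 2 and 3 wells. Without the control plates they had −0.07 and 1.45. DESeq2 was not run on either set of plates alone.

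The contrast was also taken in the other replicates. In replicate 1, 0 of 10373 genes passed edgeR (0% called, 619 at an unadjusted p under 0.05, 5.97%), and in replicate 3, 0 of 11368 passed (431, 3.79%). With wells summed per replicate and class and the replicate as a block, 0 of 16868 genes passed over the 3 replicates (3.37% at an unadjusted p under 0.05), against 3 with DESeq2, which were S100z, Mest and Gm34623, named after their values were seen. In that sum, 54 of 60 high-UMI wells but 102 of 324 comparison wells of replicate 2 were auxin wells.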

How the data were processed

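The authors sorted single cells into 96-well plates, added an ERCC spike-in mix to the lysis buffer of every well, amplified cDNA in 20 PCR cycles and deposited UMI counts per gene and well. The labels name genome build mm10, and the aligner, counter and annotation are not given in the sources used here. The authors also deposited summed counts, detected genes and the percentage of ERCC counts per well, and read totals and the saturation as a fraction per plate (0.539 to 0.579 in replicate 2). The per-well sums include spike-in and transgene rows, so totals were recomputed over 52636 mouse genes. The condition of each well came from the deposited annotation of wells, and 1 sample record holds both conditions.

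Members and gene lists were chosen with earlier results of these data known. Counts of wells were summed by plate and class, on plates with at least 2 wells of both, and tested with edgeR 4.0.16 (quasi-likelihood, TMM, plate as block, filterByExpr), with Benjamini-Hochberg adjustment at 0.05. DESeq2 1.42.0 was an alternative. Genes named are the 3 markers, up to 4 members of each list with the lowest p in each direction, and genes said to be named after their values were seen. Phases were called with cyclone in scran 1.30.0 after thinning (seed 1) to 100000 UMIs in replicate 2, 69631 in replicate 1 and 47982 in replicate 3. All high-UMI and comparison wells of a replicate exceed its number. Plate values were compared with exact permutation tests in scipy 1.17.1. No doublet caller was run. Scripts were tested on simulated counts. Alternatives were other thresholds, comparison ranges, scalings, seeds, filters and each plate left out.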

Additional observations from a re-analysis of the deposited data

Results flagged for a closer look

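Ccna2 in the high-UMI wells of auxin plate 5 stood at 341 CPM, far from the other 3 auxin plates, which lay between 254 and 268 CPM. Of 12 groups of 4 plates or more examined for such a gap, this was the only one found, and chance gives about 1 in 20.

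The difference in G2/M calls between high-UMI and comparison wells in replicate 2 lay apart from that in replicates 1 and 3 before adjustment, with a gap of −42 percentage points (exact permutation test over 7 and 8 plates, p = 0.00855, adjusted 0.0855). S calls gave a gap of 35.6 points (exact permutation test, p = 0.0413, adjusted 0.165). Neither passed the adjustment over 10 differences. Without the lone well of control plate 4 the gaps were −30.6 and 25.9 points. Phases were called at a different depth in each replicate.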

How the results depend on the processing

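The number of genes past the edgeR threshold in replicate 2, 0 in the report, was 13 with DESeq2, 27 without a filter on low counts and 2 on control plates alone, and it was 0 with each of the 6 plates left out. Over the 3 replicates it was 3 with DESeq2, and between 0 and 18 when 1 replicate was left out (18 without replicate 2, 17 without replicate 3). Without the replicate block it was also 0, with 38 genes at an unadjusted p under 0.05. The surplus of detected genes was 957 on plates with at least 5 wells of both kinds, and 873 to 1036 with each plate left out. The share of control wells was 0.26% and of auxin wells 4.17% at a threshold of 300000 UMIs, and the auxin share was 18.6% of wells past the gene filter. The gap in S calls between replicates was 25.9 points without control plate 4 (exact permutation p = 0.0876). The G2/M difference in replicate 2 ran from −14.7 to 2.23 points with each plate left out, and the ERCC difference from −0.09 to −0.04 on the log2 scale. Of the list members named, Ddit3, Hspa5 and Malat1 passed the threshold without the filter and Fgf5 and Spc24 with DESeq2. The limits to plates of 5 wells, to wells outside row D and to plates other than control plate 4 were chosen after seeing the data. The cause of these changes was not tested. The 6 control wells, on 3 plates, limit every statement on control cells.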
